A study of Rattus norvegicus with 300 samples.

Results

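Bupropion in the raphe was compared with water in the same region, and the comparison held 10 of the 300 libraries of the series: 5 labelled Bupropion and Raphe, and 5 labelled Control and Raphe. The members were taken from the region and treatment labels alone, and all genes were described. The rats were Long Evans males of 60 days, treated through the drinking water for 3 weeks. The Bupropion group took 15 mg/kg/day and the Control group drank plain water. The other Raphe groups, each with 5 libraries, were FT (13 mg/kg/day), Desipramine (7.5 mg/kg/day), Probiotics and Maltodextrin, the last being the carrier sugar at 10 g/L. FT is not spelled out in the labels, and the probiotic dose differs between label fields. The tissue was punched from frozen sections and pooled by region before RNA extraction, and total RNA was sequenced with a stranded kit. How many rats make up a pool is not stated, so p-values measure only the spread between libraries, which may be technical. In tissue of this kind, fewer cells of a type and less RNA per cell cannot be told apart.

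The raphe nuclei of the brainstem hold most of the brain's serotonin neurons. These cells make serotonin from tryptophan with Tph2 and Ddc, load it into vesicles with Slc18a2, take it back up with Slc6a4, and limit their own firing through the receptor Htr1a. Bupropion is an antidepressant and smoking-cessation drug that blocks the uptake of dopamine and noradrenaline and antagonises nicotinic acetylcholine receptors. It has little affinity for the serotonin transporter.

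Total counts were 11714132 to 14036883 in the Bupropion libraries and 12935701 to 16235135 in the Control libraries. Values below are CPM, counts scaled to library totals after TMM correction, and changes are log2 ratios of Bupropion over Control with their standard errors. Called means an adjusted p under 0.05 in edgeR's quasi-likelihood test over 12201 genes. The markers matched the label: Tph2 averaged 465 ± 16.8 CPM in Bupropion and 849.5 ± 48.5 CPM in Control, and Slc6a4 131 ± 5.12 CPM in Bupropion and 140 ± 5.4 CPM in Control (SD, n = 5 each). Dbh, the enzyme that makes noradrenaline, had 2 to 11 counts per library in Bupropion and 9 to 16 counts in Control and was too low to be tested. The Control libraries stood apart from the rest of the raphe. On the first principal component, which held 27.8% of the variance of the 30 Raphe libraries, Bupropion lay at 6.9 to 12.2 and Control at 24.5 to 28.4, and no other group's library exceeded 13.3. Control was not alone in this: FT at -54.4 to -16.4 and Desipramine at -34.2 to -17.3 lay apart at the other end. Control held 404 genes above and 369 genes below all 25 libraries of the other groups, while Bupropion held 114 above (0.934%) and 41 below (0.336%). FT held 149 above and 326 below, and Desipramine 203 above and 101 below, so Control held the most on both sides. For this reason the change of Bupropion over Maltodextrin is given beside many results. Both changes share the Bupropion libraries, so they are not independent, and Maltodextrin was the carrier of the probiotic, not the vehicle of the drug. The labels give no batch, and a batch that followed the groups cannot be told apart from treatment.

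**Figure D1:**
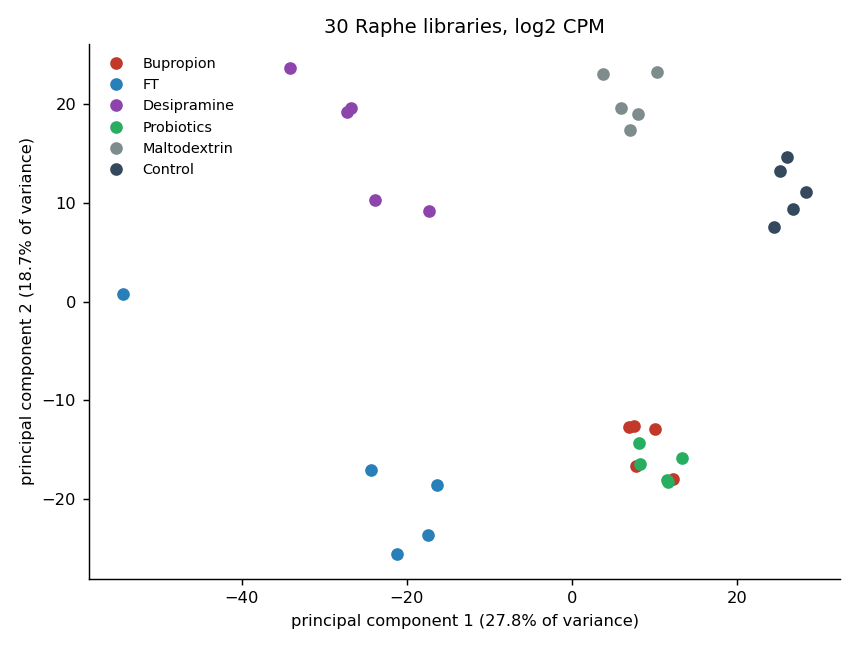
First and second principal components of log2 CPM for the 30 Raphe libraries, 1 point per library, with the share of variance on each axis. The 5 Control libraries lie at 24.5 to 28.4 on the first component, and the Bupropion libraries at 6.9 to 12.2 lie close to those of Probiotics at 8.1 to 13.3.

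Of the 12201 genes, 5323 (43.6%) were called, 2619 higher (21.5%) and 2704 lower (22.2%) in Bupropion. The counts of called genes in each list below are to be read against these shares. Most changes were small: the median size among called genes was 0.39 on the log2 scale, against a median SD between replicates of 0.0992 in Bupropion and 0.1 in Control. A change over 1.5-fold was found for 609 higher (4.99%) and 580 lower (4.75%) genes, and one over 2-fold for 152 higher (1.25%) and 79 lower (0.647%). The 2 groups did not overlap for 4210 genes (34.5%). Scaling by library totals alone moved the median change of all genes from 0.00 to 0.17 and gave 4568 higher and 1254 lower genes, so that 78.5% of calls were higher, against 49.2% with TMM. Over Maltodextrin, 4994 genes (40.9%) were called, 2536 higher (20.8%) and 2458 lower (20.1%), and Maltodextrin over Control gave 4064 (33.3%).

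The rate-limiting enzyme of brain serotonin synthesis was lower in Bupropion, and the transporter that takes serotonin back up was not called. Tph2 stood at 486, 479, 464, 451 and 448 CPM in the Bupropion libraries and at 928, 848, 849, 798 and 823 CPM in the Control libraries. The 2 groups did not overlap, and Tph2 fell by 0.87 (SE 0.062, adjusted p = 1.57e-12). It averaged 504 CPM in Maltodextrin, 633 in FT, 708 in Desipramine and 450 in Probiotics, so Control was the highest of the 6 groups, and the change of Bupropion over Maltodextrin was -0.11 (adjusted p = 0.144). Slc6a4 had 128, 132, 124, 137 and 134 CPM in Bupropion, against 144, 146, 141, 134 and 135 CPM in Control. The groups overlapped at a log2 change of -0.10 (SE 0.048, adjusted p = 0.101), and Slc6a4 was higher than in Maltodextrin by 0.38 (adjusted p = 1.46e-07). Fev, the transcription factor that fixes serotonin identity, averaged 8.04 ± 0.207 CPM in Bupropion and 7.24 ± 0.468 CPM in Control (adjusted p = 0.397).

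Of 17 tested genes of serotonin neurons, 4 rose (23.5%, against 21.5% of all genes), 7 fell (41.2%, against 22.2%) and 6 were not called. Their median change was -0.10, against 0.00 over all genes, and by library totals alone 6 rose and 3 fell. Their summed level was 3697 to 4319 CPM in Bupropion and 5128 to 5560 CPM in Control. Most of this sum was 1 gene, Qdpr, at 2700 CPM in Bupropion and 3560 CPM in Control. Qdpr is not particular to serotonin neurons: in the Bupropion libraries of the nucleus accumbens shell it averaged 475 CPM, and Tph2 2.06 CPM. The sum therefore does not measure serotonin neuron RNA as a whole. Besides Tph2, the members that fell included Ddc, which turns the precursor into serotonin, by 0.13, Slc18a2, the vesicular monoamine transporter, by 0.26, Qdpr, which regenerates the tetrahydrobiopterin cofactor, by 0.40, and Maob, a monoamine oxidase of serotonin neurons and astrocytes, by 0.28. The autoreceptor Htr1a fell by 0.57. By library totals alone Slc18a2 and Maob missed the threshold (adjusted p = 0.313 and 0.149). The small change in Ddc missed the threshold when any 1 of Control replicates 1, 2, 3 and 5 or Bupropion replicates 3, 4 and 5 was left out (adjusted p = 0.0701 to 0.161). The members that rose were the developmental transcription factors Gata2 (0.66) and En2 (0.61), the low-affinity monoamine transporter Slc22a3 (1.01) and Gch1 (0.33), which makes the tetrahydrobiopterin cofactor. Gata2 had 15.3, 15.4, 15.1, 14.6 and 15.6 CPM in Bupropion and 8.81, 9.51, 9.41, 9.94 and 10.5 CPM in Control, with no overlap. Set against Maltodextrin, the same 17 genes gave 7 higher and 1 lower, at a median of 0.17. Qdpr, En2 and Ddc were named after their values were seen.

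**Figure D2:**
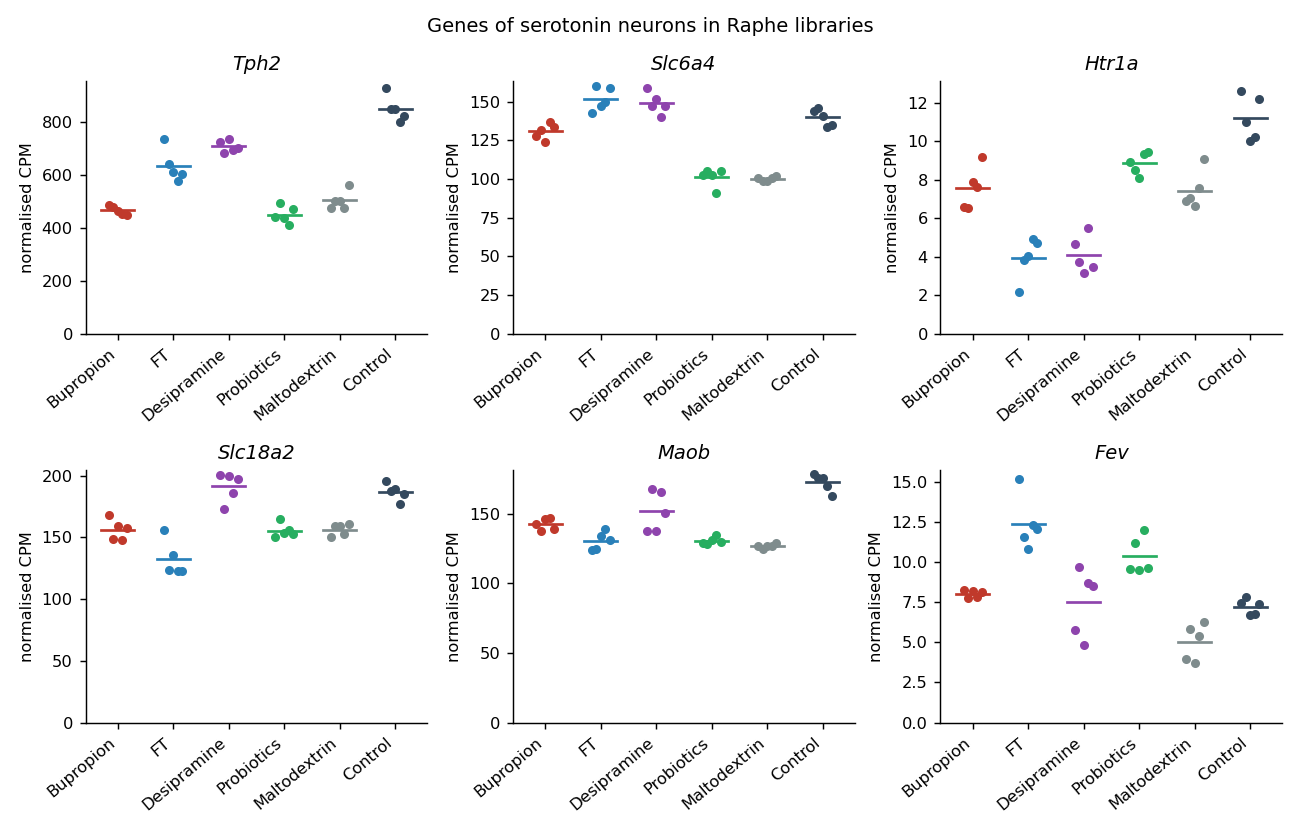
CPM of 6 genes of serotonin neurons in each Raphe library by treatment, 1 point per library, with a bar at the group mean; Bupropion stands at the left and Control at the right. Tph2, Htr1a, Slc18a2 and Maob lie lower in all 5 Bupropion libraries than in all 5 Control libraries, while Slc6a4 and Fev overlap.

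Serotonin receptors fell or were not called: 4 of 13 tested fell (30.8%, against 22.2% of all genes), none rose, and the median change was -0.16. Over Maltodextrin 2 of the 13 were lower and none higher. Htr1a, the inhibitory autoreceptor of the raphe, had 6.57, 6.52, 7.86, 7.6 and 9.2 CPM in Bupropion and 12.6, 11, 10, 10.2 and 12.2 CPM in Control. These values did not overlap (adjusted p = 0.000305), although Maltodextrin averaged 7.44 CPM, near Bupropion. Htr7, Htr5a and Htr4 fell by 0.75, 0.64 and 0.60, each below 4 CPM on average in both groups. Htr7 and Htr4 were not called over Maltodextrin (adjusted p = 0.0729 and 0.0612). Htr4 missed the threshold without Bupropion replicate 1 or 5 or Control replicate 1, 3 or 5 (adjusted p = 0.052 to 0.0829).

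Dopamine and noradrenaline are the transmitters whose uptake bupropion blocks. Th, the rate-limiting enzyme of both transmitters, stood at 272, 297, 292, 314 and 304 CPM in Bupropion and at 257, 269, 244, 261 and 256 CPM in Control. Every Bupropion library lay above all 25 other Raphe libraries, and Th rose by 0.20 over Control (SE 0.072, adjusted p = 0.0247) and by 0.70 over Maltodextrin (adjusted p = 3.14e-09). The change over Control missed the threshold without Bupropion replicate 4 (adjusted p = 0.0675) and without a filter on low counts (adjusted p = 0.0556). Gch1, whose cofactor Th needs, showed the same order: 14.8, 15.7, 14.8, 16.4 and 16.4 CPM in Bupropion lay above the 13, 12.5, 11.9, 12.5 and 12.4 CPM of Control and above all other Raphe libraries. It rose by 0.33 over Control (adjusted p = 0.00105) and by 0.58 over Maltodextrin (adjusted p = 9.53e-07).

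Of 8 tested dopamine neuron genes 4 rose (50%, against 21.5% of all genes) and none fell. These were the transcription factors Nr4a2 (0.40) and Foxa2 (0.64), the autoreceptor Drd2 (0.42) and Th. Against Maltodextrin 2 of the 8 were higher and 2 lower. Of the 3 tested dopamine receptors Drd2 rose and Drd1, which excites the cells that carry it, fell by 0.84 (adjusted p = 0.00144). Drd2 had 14.3, 16.5, 17.2, 17.2 and 16.3 CPM in Bupropion, against 12.8, 13.2, 12.2, 11 and 11.8 CPM in Control. The dopamine transporter Slc6a3, the direct target of the drug, averaged 113 ± 9.49 CPM in Bupropion and 109.7 ± 8.4 CPM in Control and was not called (0.04, SE 0.086, adjusted p = 0.735). The noradrenaline transporter Slc6a2, its other target, had 2 to 8 counts per library in Bupropion and 2 to 7 in Control and was not tested. Of the 5 noradrenaline neuron genes that were tested, Tfap2b, Gal and Th rose (60%, against 21.5% of all genes). Tfap2b, a transcription factor, averaged 1.44 ± 0.422 CPM in Bupropion and 0.269 ± 0.187 CPM in Control. Of 13 monoamine enzymes 1 rose, Gch1, and 5 fell (38.5%, against 22.2% of all genes), or 3 and 1 by library totals alone. Among those that fell were Maoa, the other monoamine oxidase, by 0.28 and Aldh9a1, an aldehyde dehydrogenase, by 0.40. Maob was higher than in Maltodextrin by 0.17, so its direction depended on the control group.

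Nicotinic receptors, which bupropion antagonises, mostly showed no called change. Of 12 tested genes of this list 1 rose (8.33%, against 21.5% of all genes) and 2 fell (16.7%, against 22.2%). Without Bupropion replicate 4 or Control replicate 1 it was 2 and 2, and by library totals alone 3 and 2. Chrna4 and Chrnb2, the subunits of the main brain receptor, were at -0.08 (adjusted p = 0.58) and -0.06 (adjusted p = 0.636), and Chrna7, which forms receptors of its own, at 0.09 (adjusted p = 0.778). Chrna2, a subunit of a few interneuron classes, had 4.51, 4.35, 5.71, 3.88 and 4.96 CPM in Bupropion and 10.7, 7.38, 11.2, 8.28 and 9.48 CPM in Control. It fell by 1.01 (SE 0.16, adjusted p = 3.13e-06), and its mean of 9.41 CPM in Control was the highest of the 6 groups, the others lying between 3.16 and 5.43 CPM. Lynx1, a membrane protein that restrains nicotinic receptors, fell by 0.34, and Ly6h, a relative of it, rose by 0.40. Over Maltodextrin 6 of the 12 genes were higher and none lower, among them Chrna4 (0.47) and Chrnb2 (0.69).

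Of 9 cholinergic neuron genes 5 rose (55.6%, against 21.5% of all genes) and 1 fell, and none fell without Bupropion replicate 3 or Control replicate 3 or 5. The median change was 0.47 over Control and -0.0023 over Maltodextrin, where 2 were higher and 1 lower. The rises included Slc5a7, the choline transporter (0.39), Ache, which breaks acetylcholine down (0.47), and the muscarinic receptors Chrm1 (1.18) and Chrm2 (0.50). Chat, the enzyme that makes acetylcholine, was at 0.47 (adjusted p = 0.121; 0.0411 without Control replicate 3); it was named after its value was seen.

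Genes of inhibitory transmission were called in both directions, as were all tested genes (21.5% higher and 22.2% lower). Of 8 genes of GABA synthesis and transport 2 rose (25%) and 4 fell (50%). In 10 genes of glycine neurons and receptors 2 rose (20%) and 4 fell (40%). The shares that rose were near that of all genes, and by library totals alone 3 rose and 2 fell in each list. Gad2, an enzyme that makes GABA, had 180, 190, 178, 182 and 184 CPM in Bupropion and 326, 314, 336, 320 and 283 CPM in Control, a fall of 0.79 (SE 0.061, adjusted p = 6.57e-12) without overlap. Slc6a11, a GABA transporter of astrocytes, also fell by 0.79. Slc32a1, which loads GABA and glycine into vesicles, rose by 0.46, Slc6a5, the transporter of glycine neurons, by 0.49, and Abat, which breaks GABA down, by 0.51. Abat lay above all 25 other Raphe libraries. Slc6a5 had 169, 172, 170, 163 and 172 CPM in Bupropion and 109, 119, 129, 125 and 119 CPM in Control, but averaged 248 CPM in Maltodextrin, so that it was lower than in that group by 0.55 (adjusted p = 1.48e-09). Of 15 GABA-A receptor subunits 4 rose (26.7%, against 21.5% of all genes) and 5 fell (33.3%, against 22.2%). Gabrb2, a subunit of the common synaptic receptor, fell by 0.47, and Gabra6, a subunit of cerebellar granule cells, rose by 5.30. Gabrd rose by 0.92, and is not particular to those cells: in the nucleus accumbens shell it averaged 61.95 CPM in Bupropion and 58.42 CPM in Control. By library totals alone 4 rose and 2 fell. The glycine receptor subunit Glrb fell by 0.57 and Glra1 rose by 0.51. Gria2, the AMPA receptor subunit that keeps the channel closed to calcium, averaged 251 ± 10.5 CPM in Bupropion and 352 ± 10.6 CPM in Control, and all Bupropion libraries lay below the other 25.

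Of 28 HCN and potassium channel genes 12 rose (42.9%, against 21.5% of all genes), 4 fell (14.3%, against 22.2%) and 12 were not called, at a median of 0.19. Kcnc1, which lets neurons fire at high rates, had 133, 129, 119, 133 and 141 CPM in Bupropion and 72.2, 81.6, 75.9, 81.2 and 86.6 CPM in Control. The groups did not overlap; Kcnc1 rose by 0.72, and over Maltodextrin by 0.52. Hcn2 and Hcn4, pacemaker channels, rose by 0.54 and 1.29, the calcium-activated channel Kcnma1 by 0.76 and Kcnd3 by 0.48. Kcnj10, the potassium channel of astrocytes and oligodendrocytes, fell by 0.58. Hcn4 and Kcnj10 were named after their values were seen. Over Maltodextrin 14 of the 28 were higher and 1 lower.

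Of 25 neuropeptide genes 12 rose (48%, against 21.5% of all genes) and 2 fell (8%, against 22.2%). Cartpt, whose peptide is induced by psychostimulants and acts in feeding and reward, had 138, 160, 141, 180 and 150 CPM in Bupropion and 76.3, 69, 63.9, 79.7 and 71.4 CPM in Control. The groups did not overlap, and Cartpt rose by 1.09 (SE 0.090, adjusted p = 2.7e-11) over Control and by 1.77 over Maltodextrin. Its mean was 76.2 CPM in FT, 201 CPM in Desipramine and 22.8 CPM in Probiotics. Cck, cholecystokinin, rose by 0.66, Grp, gastrin-releasing peptide, by 0.59, Gal, galanin, by 0.59, Sst, somatostatin, by 0.42, and Tac1, the substance P precursor, by 0.27. Tac1 was lower than in Maltodextrin by 0.72. Chgb, a protein of peptide vesicles, fell by 0.37. Sst was named after its value was seen.

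Some of these genes carry a cAMP response element, the site of the activity-dependent factor CREB, just before their start. TGACGTCA, which reads the same on both strands, was found in the 250 bases before the start of 4 of 18 neuropeptide genes with a RefSeq promoter (22.2%) and of 291 of 9828 tested genes (2.96%). The called neuropeptide genes that hold it, Cartpt, Ucn and Vgf, are shown with these letters in capitals in the GRCr8 sequence.
Cartpt (chr2:32991236-32991485, minus strand): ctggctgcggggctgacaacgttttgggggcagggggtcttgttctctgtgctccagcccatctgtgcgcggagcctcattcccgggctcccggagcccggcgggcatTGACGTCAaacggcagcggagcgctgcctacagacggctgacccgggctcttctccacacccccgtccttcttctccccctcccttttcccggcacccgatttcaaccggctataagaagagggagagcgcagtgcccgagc
Ucn (chr6:30957836-30958085, plus strand): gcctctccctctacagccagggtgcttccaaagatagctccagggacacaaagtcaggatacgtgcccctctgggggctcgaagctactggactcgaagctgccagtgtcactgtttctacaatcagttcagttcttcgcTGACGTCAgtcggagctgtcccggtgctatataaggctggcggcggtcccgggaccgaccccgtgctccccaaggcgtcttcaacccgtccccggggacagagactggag
Vgf (chr12:25277021-25277270, minus strand): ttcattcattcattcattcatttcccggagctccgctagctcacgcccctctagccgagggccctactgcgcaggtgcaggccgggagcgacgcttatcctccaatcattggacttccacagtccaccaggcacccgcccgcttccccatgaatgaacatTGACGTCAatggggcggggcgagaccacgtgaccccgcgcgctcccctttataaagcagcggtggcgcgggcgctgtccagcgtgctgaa
Ucn, which encodes urocortin, rose by 0.64 and Vgf, a secreted protein precursor of neurons, by 0.23, a call that was lost without Bupropion replicate 1, 2 or 4 or Control replicate 1 (adjusted p = 0.0741 to 0.111); both were named after their values were seen. Among immediate early genes the share was larger, at 4 of 11 (36.4%), and Dusp1, which fell, holds the element. It was as common in genes that rose (2.95%) as in all tested genes, and stood at 3.69% in genes that fell.

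Several of the genes with the largest rises are used as markers of cells outside the raphe, though not all are particular to those cells. Gabra6, a GABA-A receptor subunit of cerebellar granule cells, had 5.07, 5.85, 4.8, 5.22 and 5.53 CPM in Bupropion and 0, 0.38, 0, 0.166 and 0.0718 CPM in Control, which is 343 counts in all against 8. Pcp2, a protein of Purkinje cells, had 5.54, 5.32, 7.28, 5.62 and 8.84 CPM in Bupropion and 0.65, 0.38, 0.95, 0.58 and 0.287 CPM in Control. Neurod1, a transcription factor of granule cells, had 12.5, 10.8, 11.7, 11.2 and 12.9 CPM in Bupropion and 1.44, 2.89, 2.94, 2.32 and 3.23 CPM in Control. All 5 Bupropion libraries lay far above Control, and the Probiotics means were higher still, at 16.7, 16.5 and 24.1 CPM. In the nucleus accumbens shell Gabra6 and Pcp2 averaged 0.243 and 0.411 CPM in Bupropion. Neurod1 averaged 11.7 CPM in Bupropion and 7.34 CPM in Control there, so it is not particular to granule cells. Of 14 genes of cerebellar granule and Purkinje cells 8 rose (57.1%, against 21.5% of all genes) and none fell, at a median of 0.62. None of the 14 was at a count of 0 in all libraries of either group. Their summed level was 725 to 763 CPM in Bupropion and 609 to 670 CPM in Control.

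Ttr, the thyroid hormone carrier of the choroid plexus, had 46.7, 52.5, 56.3, 52.1 and 71.3 CPM in Bupropion and 13, 12.4, 10.5, 13.7 and 12.5 CPM in Control, a rise of 2.17 (SE 0.11, adjusted p = 3.84e-16). The other groups averaged 21.3 to 61.2 CPM, and the change over Maltodextrin was 0.39 (adjusted p = 0.002). Of 13 genes of choroid plexus and ependyma 4 rose (30.8%, against 21.5% of all genes) and 2 fell (15.4%, against 22.2%), or 2 and 1 without Control replicate 1. Their sum was 609 to 627 CPM in Bupropion and 631 to 706 CPM in Control. Enpp2, which fell, averaged 525 ± 13.3 CPM in Bupropion and 620 ± 28.3 CPM in Control. It made up most of the sum, which therefore does not show the direction of the other members. Otx2, a transcription factor of this tissue, had 0 counts in all 5 Bupropion libraries. There 3 counts, the limit that 0 allows, are at most 0.248 CPM. Igf2, a growth factor made by meninges and choroid plexus, had 28.5, 26.6, 28.1, 27.2 and 27.4 CPM in Bupropion and 12.4, 10.8, 10.4, 11.9 and 12.8 CPM in Control, a rise of 1.23 (adjusted p = 1.03e-13). With it rose Igfbp2, which binds it (0.69), and the collagens Col3a1 (0.52) and Col1a1 (0.45, named after its value was seen). In all, 6 of 13 genes of fibroblasts and meninges rose (46.2%, against 21.5% of all genes), and none fell. Their sums overlapped, at 1175 to 1356 CPM in Bupropion and 1180 to 1277 CPM in Control.

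Of 8 hypothalamic and preoptic neuron genes 4 rose (50%, against 21.5% of all genes) and none fell. These were Cartpt, the hormones Oxt (1.37) and Avp (1.54), and the transcription factor Sim1 (1.58). Cartpt is not particular to such neurons: in the nucleus accumbens shell it averaged 221.5 CPM in Bupropion and 198.1 CPM in Control. Oxt had 3.17, 2.32, 4.47, 4.43 and 6.9 CPM in Bupropion and 1.01, 2.59, 1.99, 1.66 and 1.08 CPM in Control, and these ranges overlapped. Avp and Sim1 were low, at 1.54 and 1.23 CPM on average in Bupropion and 0.542 and 0.393 CPM in Control. Against Maltodextrin 4 of the 8 genes were higher and none lower, but Sim1 was not called (0.12, adjusted p = 0.813). Pmch and Fezf1 of this list had no count in either group, where 0 allows up to 0.248 CPM in a Bupropion library and 0.259 CPM in a Control library. Of 6 red blood cell genes 3 rose (50%, against 21.5% of all genes) and none fell. Hbb, a globin chain, averaged 1857 ± 102 CPM in Bupropion and 1369 ± 119 CPM in Control. How far the makeup of the punches contributes to the results was not tested. Of 8 genes of midbrain and pontine glutamate neurons 5 rose over Control (62.5%, against 21.5% of all genes), among them the transporter Slc17a6 (0.24). Against Maltodextrin 1 was higher and 5 lower.

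**Figure D3:**
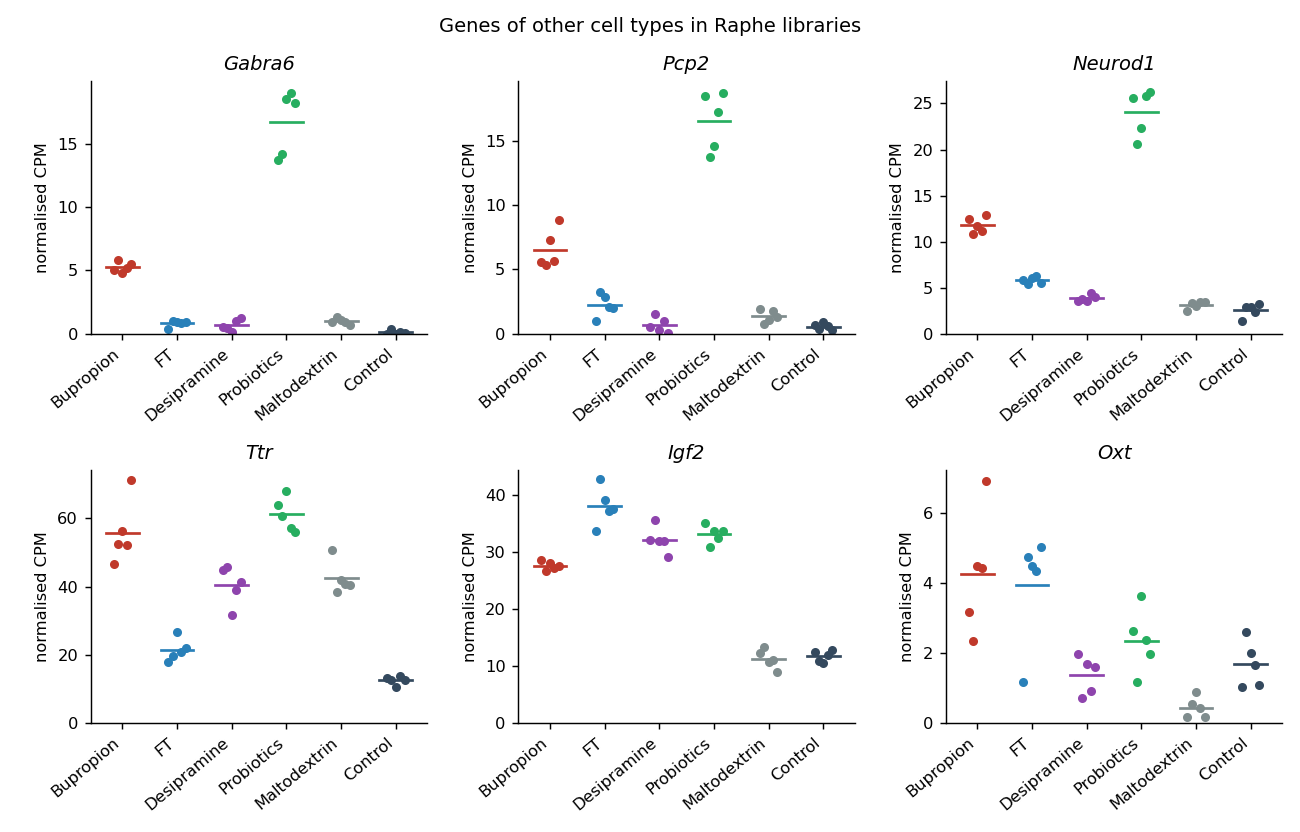
CPM of Gabra6, Pcp2, Neurod1, Ttr, Igf2 and Oxt in each Raphe library by treatment, 1 point per library, with a bar at the group mean; the vertical axes are linear. The first 3 genes are highest in Probiotics and next highest in Bupropion, and Ttr is lowest in Control.

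Other genes that led the rises, by size or by p, had varied roles. Diras1, a small GTPase of neurons, had 64, 71.3, 73.5, 73.6 and 90.5 CPM in Bupropion and 22.6, 21.8, 23, 28.3 and 24.3 CPM in Control, a rise of 1.64 (SE 0.16) with no overlap. Wasl, which drives actin branching, had 136, 123, 142, 144 and 131 CPM in Bupropion and 64.1, 66.7, 73.5, 82.9 and 73.1 CPM in Control. It rose by 0.91 over Control and by 0.92 over Maltodextrin (adjusted p = 7.07e-12 and 7.91e-12). Tpgs1, part of the complex that adds glutamate chains to tubulin, rose by 1.31, Epn1, an endocytic adaptor, by 1.37, Dapk3, a kinase, by 1.72, Gas2l1, a linker of actin and microtubules, by 1.87, Tcap, a titin-binding protein of muscle, by 1.99, Zfp238, a transcriptional repressor of developing neurons, by 1.32, and Nptx1, a pentraxin that gathers AMPA receptors at synapses, by 0.77. Syndig1l and Ppp1r37 rose by 1.51 and 1.29.

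The genes that led the falls, by size or by p, also had varied roles. Srsf5, a splicing factor, had 83.1, 76.6, 77.7, 65.7 and 69.1 CPM in Bupropion and 203, 197, 199, 190 and 182 CPM in Control. It fell by 1.38 (SE 0.065, adjusted p = 5.15e-17), by 1.28 against Maltodextrin, and lay below all 25 other Raphe libraries. Pkm, pyruvate kinase, had 942, 1050, 876, 903 and 975 CPM in Bupropion and 2770, 2700, 2520, 2130 and 2570 CPM in Control. Control was the highest of the 6 groups for Pkm, the others averaging 522 to 1270 CPM. Vps11, part of the tethering complexes of endosomes and lysosomes, had 50.8, 48.5, 48.1, 44.3 and 46.3 CPM in Bupropion and 136, 120, 116, 102 and 113 CPM in Control, and fell by 1.30. Abcc5, an exporter of cyclic nucleotides, Hnrnph2, another splicing factor, and Prkacb, a catalytic subunit of protein kinase A, fell by 0.73, 0.78 and 0.86. Arrdc3, Myl6b, Pamr1, Zfp692, Ccser1, Cyb5d1, Pramef8 and Polr2l fell by 1.28 to 1.61, and Polr2l, an RNA polymerase subunit, had an SD of 2.25 around a mean of 3.42 CPM in Bupropion.

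**Figure D4:**
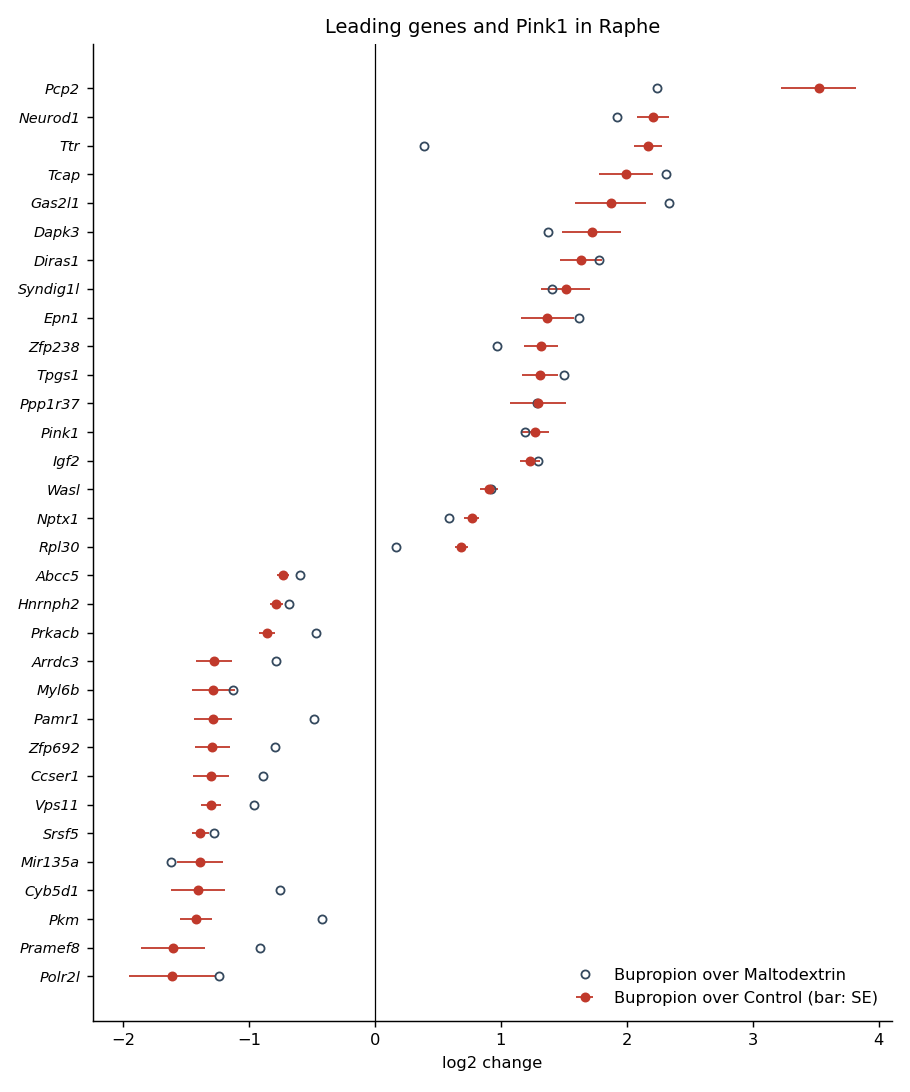
Log2 change with its standard error for 31 leading genes and Pink1, Bupropion over Control (filled) and Bupropion over Maltodextrin (open), ordered by the first. Srsf5, Wasl, Igf2 and Pink1 keep nearly the same change with either group, while Ttr, Pkm and Rpl30 lie nearer to 0 over Maltodextrin.

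Pink1, the kinase that marks damaged mitochondria for removal, had 240, 167, 171, 252 and 208 CPM in Bupropion and 89.5, 86.1, 83.8, 83.8 and 85.8 CPM in Control. The groups were far apart, and the rise was 1.27 (SE 0.11, adjusted p = 3.05e-11), or 1.19 over Maltodextrin. Other genes of mitophagy mostly went the other way: of 19 tested 3 rose (15.8%, against 21.5% of all genes) and 13 fell (68.4%, against 22.2%). Against Maltodextrin 3 of the list were higher and 7 lower. Park2, the ubiquitin ligase that Pink1 activates, fell by 0.70, its substrates Mfn1 and Mfn2, which fuse mitochondria, by 0.66 and 0.85, Park7 by 0.52 and the autophagosome protein Gabarapl1 by 0.63. Mfn2 had 34, 32.4, 29.1, 28 and 29.8 CPM in Bupropion and 54.7, 54.9, 60.9, 50.3 and 55.4 CPM in Control; over Maltodextrin its change was -0.19 (adjusted p = 0.0843). The members that rose with Pink1 were the receptors Tax1bp1 (0.43) and Bnip3l (0.24). Of 33 genes of oxidative phosphorylation 19 fell (57.6%, against 22.2% of all genes) and 3 rose (9.09%, against 21.5%), with the same numbers over Maltodextrin. Sdha of complex II fell by 0.63, Atp5b of the ATP synthase by 0.63 and Ndufs1 of complex I by 0.44. Park2, Park7, Tax1bp1 and Bnip3l were named after their values were seen.

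Genes of lipid and protein turnover were called lower in larger numbers than higher with TMM scaling, and for several lists this split depended on the scaling. With TMM the share called lower was 45.5% for sterol synthesis, 40.9% for the lysosome and 38.7% for the proteasome, against 22.2% of all genes. It was 45% for the unfolded protein response and 52.6% for tubulins and neurofilaments. Of 22 genes of sterol synthesis 10 fell and 3 rose, but by library totals alone 5 fell and 7 rose. Fdps, which makes farnesyl diphosphate, fell by 0.79 and Hmgcs1, the first committed step, by 0.35, below all 25 other libraries. Of 22 lysosome genes 9 fell and none rose, led by the cathepsins Ctsb (-0.66), Ctsf (-0.69) and Ctsd (-0.68) and by Psap, the saposin precursor (-0.67). Over Maltodextrin 3 of these 22 were higher and 8 lower, but Ctsb (-0.14, adjusted p = 0.0691) and Ctsd (-0.20, adjusted p = 0.132) were not called. Of 31 proteasome genes 12 fell and 4 rose, but by library totals alone 7 fell and 12 rose. Of 20 genes of the unfolded protein response 9 fell and 3 rose (4 and 5 by library totals alone), among them Xbp1, a transcription factor of that response (-0.62). Of 19 tubulin and neurofilament genes 10 fell and 3 rose (6 and 6 by library totals alone), with Tuba1b at -0.93 and Ina, a neurofilament protein, at 0.67.

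Of 23 heat shock genes and chaperones 11 fell (47.8%, against 22.2% of all genes) and 2 rose (8.7%, against 21.5%). It was 9 and 1 without Control replicate 4, and by library totals alone 6 fell and 9 rose. Hspa8, the constitutive Hsp70 chaperone, averaged 3605 ± 189.7 CPM in Bupropion and 5678 ± 491 CPM in Control and fell by 0.66. Hspa9, its mitochondrial relative, fell by 0.66, and Hspe1, a mitochondrial co-chaperonin, by 0.36. Hspb1, a small heat shock protein, rose by 1.10. The heat shock element, searched as the units GAA, TTC and GAA set 2 bases apart, on both strands, was in the 250 bases before 4 of 20 genes of this list (20%) and of 37 of 9828 tested genes (0.376%). The promoters of Hspa8 and Hspe1, both called lower, with Hspe1 named after its values were seen, are shown with these letters in capitals; where matches overlap they run together.
Hspa8 (chr8:50080264-50080513, plus strand): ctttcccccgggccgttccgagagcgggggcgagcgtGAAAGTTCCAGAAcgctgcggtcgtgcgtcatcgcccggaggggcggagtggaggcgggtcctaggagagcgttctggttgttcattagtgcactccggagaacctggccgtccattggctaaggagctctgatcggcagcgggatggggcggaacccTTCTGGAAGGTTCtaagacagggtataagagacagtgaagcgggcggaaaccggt
Hspe1 (chr9:64084077-64084326, plus strand): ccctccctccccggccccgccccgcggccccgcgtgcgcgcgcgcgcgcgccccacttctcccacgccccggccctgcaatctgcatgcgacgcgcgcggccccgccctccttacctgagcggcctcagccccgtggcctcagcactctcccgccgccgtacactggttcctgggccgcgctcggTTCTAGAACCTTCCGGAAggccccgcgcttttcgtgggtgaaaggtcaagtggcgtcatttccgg
Cytosolic ribosomal proteins went the other way over Control: 26 of 61 rose (42.6%, against 21.5% of all genes) and 4 fell (6.56%, against 22.2%). Only 2 fell without Bupropion replicate 3 or 4 or Control replicate 1, 2 or 5. Rpl30 was at 0.69, Rpl7 at 0.57 and Rpl11 at 0.51. Over Maltodextrin 6 of the 61 were higher and 16 lower, so the direction of this list depended on the control group. Ribosomal proteins, tubulins and globins have near-identical copies and pseudogenes, and how reads shared between copies were counted is not given, so single values among them are uncertain.

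**Figure D5:**
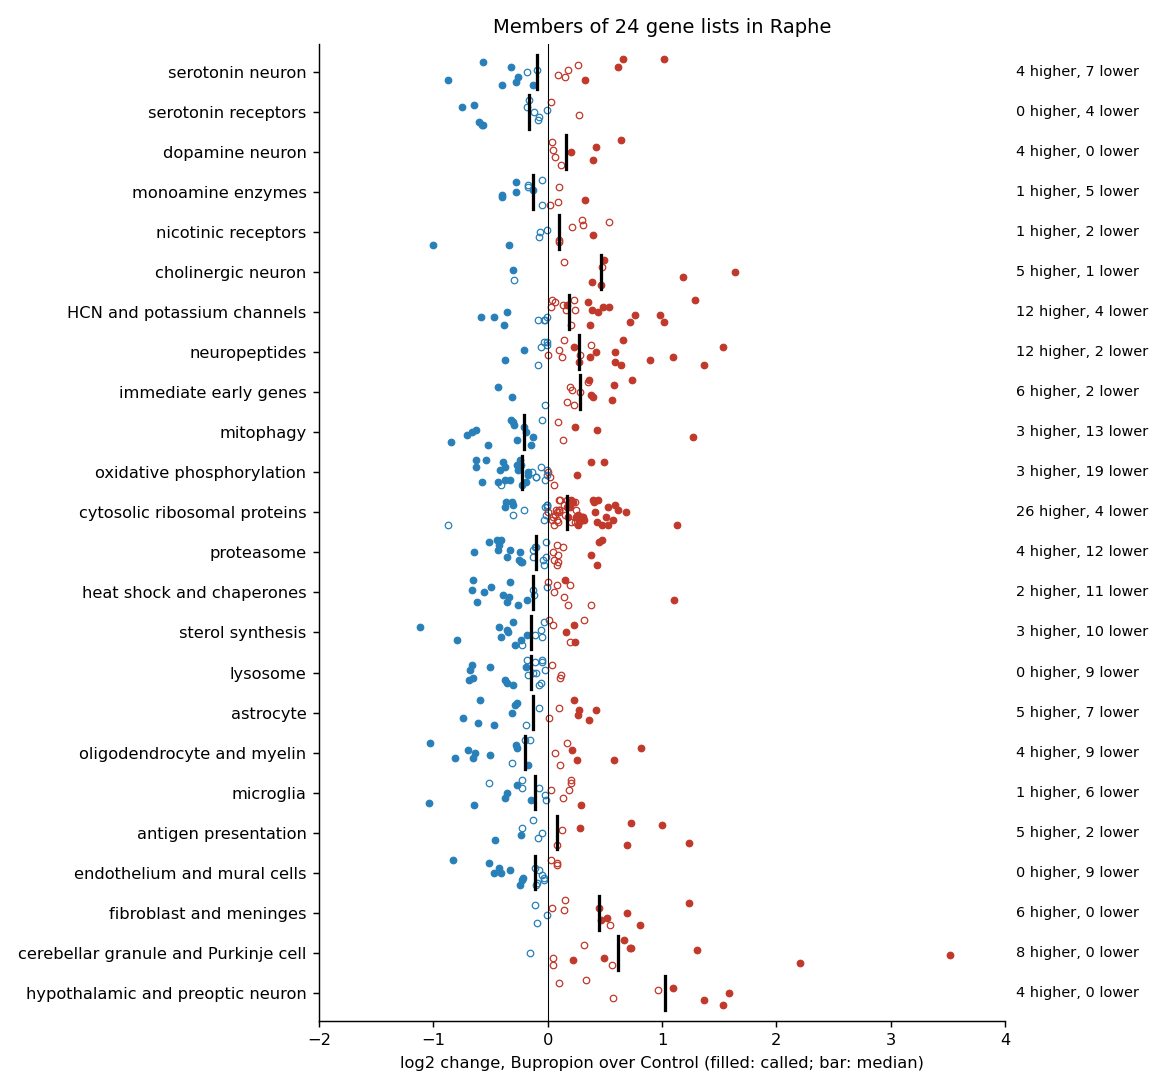
Log2 change of Bupropion over Control for each tested member of 24 gene lists, 1 point per gene, filled where called, with a bar at the list's median and the numbers called higher and lower at the right. Gabra6 at 5.30 lies beyond the axis, which ends at 4. Mitophagy and oxidative phosphorylation lie mostly below 0, and cerebellar and hypothalamic genes mostly above it.

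Glial genes were divided. Of 19 genes of oligodendrocytes and myelin 9 fell (47.4%, against 22.2% of all genes) and 4 rose (21.1%, against 21.5%). It was 8 and 2 without Bupropion replicate 2, and 6 and 7 by library totals alone. Tf, transferrin, had 4080, 4280, 3900, 4340 and 4250 CPM in Bupropion and 9340, 8970, 8340, 7350 and 8500 CPM in Control, a fall of 1.03, but the change over Maltodextrin was -0.21 (adjusted p = 0.0669). Opalin and Mog, membrane proteins of oligodendrocytes, fell by 0.65 and 0.50. Of 11 genes of oligodendrocyte precursors 4 rose (36.4%, against 21.5% of all genes) and 1 fell. Without Bupropion replicate 1 it was 2 that fell, and without Control replicate 1 none. The lineage factors Olig1 (0.69) and Olig2 (0.39) were higher. Of 16 astrocyte genes 7 fell (43.8%, against 22.2% of all genes) and 5 rose (31.2%, against 21.5%), or 6 and 7 by library totals alone. Glul, glutamine synthetase, and Aldoc, an aldolase of astrocytes, fell by 0.61 and 0.74.

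Of 18 microglia genes 6 fell (33.3%, against 22.2% of all genes) and 1 rose (5.56%, against 21.5%). Without Bupropion replicate 3 or Control replicate 2 or 3 it was 2 that rose, and by library totals alone 3 fell and 4 rose. Cx3cr1, the fractalkine receptor, had 10.5, 9.74, 8.69, 8.23 and 10.6 CPM in Bupropion and 21.4, 18, 19.9, 18.1 and 20.5 CPM in Control, and fell by 1.04 (adjusted p = 2.63e-10), or by 0.49 over Maltodextrin. Aif1 (Iba1) rose by 0.29, and the homeostatic genes P2ry12 (0.14, adjusted p = 0.367) and Tmem119 (0.19, adjusted p = 0.168), named after their values were seen, were not called. Over Maltodextrin 9 of the 18 were higher and 5 lower. Of 19 genes of endothelium and mural cells 9 fell (47.4%, against 22.2% of all genes) and none rose. Cdh5, the endothelial cadherin, was among them (-0.83). Against Maltodextrin Cdh5 was at 0.14 (adjusted p = 0.447), and 3 genes of the list were higher and 3 lower.

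Of 13 tested genes of antigen presentation 5 rose (38.5%, against 21.5% of all genes), 2 fell (15.4%, against 22.2%) and 6 were not called, at a median of 0.08. Without Bupropion replicate 1 it was 4 and 1, and without Control replicate 5 it was 5 and 1. Among those that rose were 3 MHC class II genes, which present antigen to helper T cells and were low in the raphe; RT1-Bb, RT1-DMa and RT1-DMb were not tested. RT1-Da had 4.83, 4.5, 4.47, 5.22 and 4.02 CPM in Bupropion and 2.24, 1.83, 1.99, 1.74 and 1.94 CPM in Control. RT1-Db1 had 4.51, 3.75, 4.39, 4.03 and 3.52 CPM in Bupropion and 1.95, 1.37, 2.24, 2.07 and 2.44 CPM in Control. RT1-Ba had 4.04, 3.07, 3.72, 3.48 and 3.31 CPM in Bupropion and 2.02, 2.74, 2.42, 1.49 and 1.94 CPM in Control. For all 3 genes every Bupropion library lay above all 25 other Raphe libraries, with rises of 1.24, 1.00 and 0.73 over Control and of 1.48, 1.22 and 1.56 over Maltodextrin. The class I gene RT1-A2 fell by 0.46. Of 9 genes of blood immune cells 4 rose (44.4%, against 21.5% of all genes) and none fell, 1 falling without Bupropion replicate 2. Their summed levels were 109 to 120 CPM in Bupropion and 81.3 to 101 CPM in Control. The part of these genes in the class II levels was not tested.

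Markers of neuronal activity and stress moved in part. Of 15 immediate early genes 6 rose (40%, against 21.5% of all genes) and 2 fell (13.3%, against 22.2%), and 1 fell without Bupropion or Control replicate 3. Homer1, a synaptic scaffold whose short form is induced by activity, rose by 0.56 and the nuclear receptor Nr4a3 by 0.74, and Dusp1, a phosphatase, fell by 0.31. Fos, the usual marker of recent activity, had 6.01 ± 1.03 CPM in Bupropion and 5.19 ± 0.532 CPM in Control (adjusted p = 0.232). Over Maltodextrin 2 of the 15 were higher and none lower, and Homer1 was at -0.01. Bdnf, a neurotrophin that antidepressants are known to act on, had 28.7, 26.3, 27.6, 31.6 and 29 CPM in Bupropion and 22.5, 23.8, 23.9, 22.4 and 23.1 CPM in Control. It rose by 0.30 (adjusted p = 0.00213), and Control was again the lowest of the 6 groups, the others averaging 27.1 to 29.4 CPM. Of 17 glucocorticoid genes 6 rose (35.3%, against 21.5% of all genes) and 3 fell (17.6%, against 22.2%). Tsc22d3, a target also known as Gilz, fell by 0.57, Per1 rose by 1.06, and Fkbp5, another target, was at -0.02 (adjusted p = 0.874). Among 16 clock genes 4 rose (25%, against 21.5% of all genes), with the output gene Dbp (0.37) beside Per1, and Bhlhe40, a repressor, fell by 0.39; 3 rose and 2 fell without Bupropion replicate 2 or Control replicate 1 or 4.

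Several called symbols were those of microRNA genes. The libraries counted long RNA, so these values come from hairpin and host transcripts and not from mature microRNAs. Of 43 such symbols tested 19 fell (44.2%, against 22.2% of all genes) and 1 rose, nearly all below 10 CPM. Mir135a had 1.03, 1.2, 0.993, 1.74 and 1.37 CPM in Bupropion and 3.76, 3.5, 3.8, 2.73 and 2.87 CPM in Control, and fell by 1.39 (SE 0.18, adjusted p = 2.49e-07). In mice miR-135a is known to target the transcripts of Slc6a4 and Htr1a. Mir101a fell by 1.06. Of the 4 symbols that share the seed of the miR-30 family, Mir30c2, Mir30e and Mir384 fell by 0.70, 0.99 and 0.96, and Mir30a was at -0.11 (adjusted p = 0.874). Mir30c2 was lost without Control replicate 1, 3 or 5 or Bupropion replicate 3, 4 or 5 (adjusted p = 0.0512 to 0.107). Against Maltodextrin Mir30c2 and Mir30e were not called (-0.48 and -0.38, adjusted p = 0.165 and 0.363). Mir384 and Mir30a were called lower there (-1.14 and -1.30, adjusted p = 0.000407 and 0.0167). Mir568, the one that rose, was higher by 0.82 (adjusted p = 0.000101). All but Mir135a were named after their values were seen. Their mature sequences from RefSeq, found for 37 of the 43 symbols, are shown 5′ to 3′ with the seed, bases 2 to 8, in capitals; the last 3 share 1 seed.
miR-135a-5p: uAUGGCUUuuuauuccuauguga
miR-101a-3p: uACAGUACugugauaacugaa
miR-568: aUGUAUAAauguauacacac
miR-30c-5p: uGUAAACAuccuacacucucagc
miR-30e-5p: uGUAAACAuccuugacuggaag
miR-384-5p: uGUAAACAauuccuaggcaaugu

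The other 2 antidepressants were set against Bupropion in the same region, which compares the drugs directly. The doses differed between the drugs, as given above, and the FT libraries were shallower, at 4369730 to 9621728 counts. Against FT 5573 genes were called (45.7%). Th averaged 296 ± 15.6 CPM in Bupropion and 110 ± 15 CPM in FT, a difference of 1.42 (SE 0.075, adjusted p = 9.08e-16). Aldh1a1, an aldehyde dehydrogenase of a class of dopamine neurons, averaged 287 ± 7.49 CPM in Bupropion and 135.5 ± 7.92 CPM in FT, and Hcn2 55.1 ± 4.33 CPM in Bupropion and 138 ± 13.8 CPM in FT. Against Desipramine 6421 genes were called (52.6%). Slc6a5 averaged 169 ± 3.64 CPM in Bupropion and 67.7 ± 4.66 CPM in Desipramine. Arpp21, a cAMP-regulated phosphoprotein, averaged 49.7 ± 3.22 CPM in Bupropion and 156 ± 4.32 CPM in Desipramine. Dpp9, a dipeptidyl peptidase, averaged 65.6 ± 1.47 CPM in Bupropion and 19 ± 2.27 CPM in Desipramine. Clk1, a kinase of splicing factors, was lower in Bupropion than in FT by 0.96 and than in Desipramine by 1.15.

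The effect of Bupropion in Raphe was then set against its effect in LConly, the locus coeruleus punch as its label reads, and in NACShell, the nucleus accumbens shell, with the replicate number kept in the model. The effects differed for 5130 of 12196 genes in LConly (42.1%) and for 5570 of 12270 genes in NACShell (45.4%). The 4 genes with the smallest p against each region all had a lower effect in Raphe. Tubb4a, a tubulin of oligodendrocytes and neurons, averaged 1484 CPM in Bupropion and 1624 CPM in Control in Raphe, but 2178 CPM in Bupropion and 421.6 CPM in Control in LConly, a difference of effects of -2.50 (SE 0.079). Gstm1, a detoxifying transferase, averaged 103 CPM in Bupropion and 169 CPM in Control in Raphe, against 340.2 CPM in Bupropion and 94.2 CPM in Control in NACShell (-2.57, SE 0.059). Of the 32 leading genes of the raphe, 18 differed in effect from LConly and 27 from NACShell. These genes were picked by their change in the same Raphe libraries, which favours a difference from any other region. Their counts therefore cannot be compared with the shares over all genes. Srsf5 averaged 66 CPM in Bupropion and 173 CPM in Control in LConly, where no difference of effects was called (0.00, SE 0.080, adjusted p = 0.999). Its fall was smaller in NACShell than in Raphe, at 115 CPM in Bupropion and 170 CPM in Control (-0.84, adjusted p = 2.97e-14). Pink1 averaged 278 CPM in Bupropion and 81.6 CPM in Control in LConly, a larger rise than in Raphe (-0.46, adjusted p = 0.00483), and 91 CPM in Bupropion and 60.4 CPM in Control in NACShell, a smaller one (0.66, adjusted p = 3.63e-05).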

How the data were processed

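Total RNA from frozen tissue punches was sequenced, and the values deposited by the authors are whole-number read counts per gene symbol, not normalised, in 1 table of all libraries. Per the submitters' processing notes, STAR, HTSeq, FastQC and the rn6 build were used; versions, the handling of multimapping reads and the strand setting were not given in the sources used here. Groups came from the region and treatment labels. The Bupropion libraries held 11714132 to 14036883 counts and the Control libraries 12935701 to 16235135.

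A single edgeR model (version 4.0.16, with limma 3.58.1 in R 4.3.3) held all 30 Raphe libraries, with TMM factors, the filterByExpr filter and 1 term per treatment, and contrasts were tested with the quasi-likelihood F test and Benjamini-Hochberg adjustment over all tested genes. Genes with an adjusted p under 0.05 were called. Printed CPM are scaled by TMM factors, so they differ from CPM by raw totals, and log2 changes come from the fit. A count of 0 was taken to allow up to 3 counts, which covers counting error only. The difference of effects between regions came from a fit of the Bupropion and Control libraries of both regions, with same-numbered libraries of a treatment as a block. Bupropion against Control was also fitted with the replicate number as a block. Residuals of same-numbered Bupropion and Control libraries correlated at 0.103, 0.122, 0.16, 0.21 and 0.166 over 9226 genes above 5 CPM. Bupropion replicates 2, 3, 4 and 5 matched the Control library of their own number best, but replicate 1 matched Control replicate 3 best. The correlations were weak and the labels do not say what a replicate number marks, so whether the numbers pair the samples is not settled. The procedure was tested on simulated counts.

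The genes named in the text were those not overlapping between groups with the largest changes (12 higher and 12 lower) and the smallest p (6 higher and 6 lower) among ordinary symbols with a mean log2 CPM over 1, up to 4 called members per gene list, the 4 genes with the smallest p in each further comparison, and fixed genes of the monoamine systems; any others are said to be chosen after their values were seen. Some of these genes are not reported here. The comparison, the members and the gene lists were chosen with earlier results of these data known. Alternatives were RLE and upper-quartile factors, no filter and a CPM filter, DESeq2 1.42.0, Maltodextrin in place of or pooled with Control, the compared groups alone, the replicate block and each replicate left out; scaling by library totals alone was added after seeing the data. Promoters and mature microRNAs came from RefSeq tables, the promoters from GRCr8: 9208 of the tested symbols matched by current and 620 by older symbol, and 2373 had none. Coordinates refer to GRCr8 and were not compared with rn6.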

Additional observations from a re-analysis of the deposited data

Results flagged for a closer look

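Single libraries stood apart from the other 4 of their group in 13 of 316 gene and group pairs checked; chance gives about 1 in 20 groups. In Bupropion the highest library was apart for Cdh5 (6.1 CPM, replicate 1), Mir568 (8.62 CPM, replicate 4), Sim1 (1.74 CPM, replicate 3) and Tac1 (67.1 CPM, replicate 4), and the lowest for Hspb1 (8.24 CPM, replicate 1), Mir384 (0.475 CPM, replicate 4) and Ndufs1 (174 CPM, replicate 5). In Control the highest was apart for Chgb (378 CPM), Ctsf (133 CPM) and Hmgcs1 (583 CPM), all in replicate 1, and for Tax1bp1 (296 CPM, replicate 4), and the lowest for Fos (4.26 CPM, replicate 1) and Rpl7 (254 CPM, replicate 4).

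The effect of Bupropion over Control differed between Raphe and LConly for 5130 genes and between Raphe and NACShell for 5570 genes. Against LConly the difference of effects was -2.59 for Hapln2, which links the matrix at nodes of Ranvier, -2.50 for Tubb4a, -2.27 for Ctxn1 and -2.65 for Wbp2. Against NACShell it was -2.57 for Gstm1, -2.36 for Tubb4a, -1.82 for Gng3, a G protein subunit, and -1.53 for Myl12b, a myosin light chain.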

How the results depend on the processing

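The number of called genes stayed within 1.5 times its value in each of the 5 comparisons under every alternative run, but the genes behind the count changed. Bupropion against Control gave 5310 to 6140 genes with the alternatives that kept both groups and 4819 to 5094 with 1 replicate left out, against 5323. With the replicate block it gave 5572 genes, and the block changed no call of a named gene. Of the 5323 calls, 5295 kept call and direction with the block, 5222 with DESeq2, 4177 with Control and Maltodextrin pooled, 3873 by library totals alone and 2819 with Maltodextrin in place of Control, a comparison that shares the Bupropion libraries. Some named genes turned direction, and the cause was not tested. With Maltodextrin in place of Control these were Bdnf (-0.0295), Cdh5 (0.14), Chat (-0.38), Chrna2 (0.31), Chrna4 (0.47), Chrna7 (-0.0943), Chrnb2 (0.69), Homer1 (-0.0076), Htr1a (0.02), Lynx1 (0.19), Maob (0.17), Nr4a2 (-0.14), RT1-A2 (0.11), Rpl11 (-0.0083), Slc17a6 (-0.40), Slc32a1 (-0.15), Slc6a4 (0.38), Slc6a5 (-0.55), Tac1 (-0.72) and Vgf (-0.0836). With Control and Maltodextrin pooled they were Chrna4 (0.19), Chrna7 (0.00), Chrnb2 (0.31), Slc17a6 (-0.0797), Slc6a4 (0.14), Slc6a5 (-0.0294) and Tac1 (-0.22). By library totals alone, an alternative added after seeing the data, they were Chrna4 (0.0888), Chrnb2 (0.10), Ddc (0.0423), Fkbp5 (0.15), Mir30a (0.0526) and Slc6a4 (0.0722). With 1 replicate left out, 5 values not called changed sign: Chrna7 ranged from -0.0451 to 0.20, Mir30a from -0.6426 to 0.1851, Fkbp5 from -0.068 to 0.0413, Slc6a3 from -0.0027 to 0.107, and the difference of effects for Srsf5 between Raphe and LConly from -0.0317 to 0.0954. Slc6a4 was called lower with upper-quartile factors (-0.12, adjusted p = 0.0495 in edgeR), and Ddc was not called with RLE factors (adjusted p = 0.0574). Depth limits genes below about 1 CPM, where 3 counts are 0.215 to 0.259 CPM.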
